A study of Sus scrofa with 19 samples.

Results

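The genes of 10 glycolytic enzymes of skeletal muscle (*HK2*, *GPI*, *PFKM*, *ALDOA*, *TPI1*, *GAPDH*, *PGK1*, *PGAM2*, *ENO3* and *LDHA*) were examined in the longissimus dorsi muscle (LD) of 19 Duroc pigs. All pigs came from a commercial Duroc line, were castrated males, and were sampled at slaughter at 190 days of age, with 1 array per pig. The HIGH group (HIGH_fattening in the labels, n = 10) and the LOW group (LOW_fattening, n = 9) were the upper and lower ends of a ranking of pigs on carcass, plasma and muscle fat traits, so the groups differ in how much the animals fattened and carry no treatment or engineered allele. The study drew its animals from several half-sib families and fattening batches, and the labels give neither of these, nor a laboratory, for any single pig. They could therefore not be entered in a test or told apart from the groups. A probe set is a group of short oligonucleotides that together read 1 transcript, and a probe set was taken as a member when the platform annotation gave it exactly 1 gene symbol and that symbol was among the 10. This held for 21 of the 24114 probe sets of the array, which covered 8 of the 10 genes. *HK2* and *ALDOA* had no such probe set and were not analysed here. *GAPDH* had 14, of which 9 are quality controls that the manufacturer placed on the array and 5 are not. Those 5 are called *GAPDH* A to *GAPDH* E here, in the order of their identifiers, which the legends of the plots give. Each of the other 7 genes had 1 probe set.

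Glycolysis splits glucose into pyruvate in the cytosol and yields ATP without oxygen. In skeletal muscle, and above all in fast fibres such as those that fill most of the pig LD, it is fed by glycogen and can run far faster than the mitochondria, with lactate as its end product during hard work. In the first stretch ATP is spent to prepare the sugar (hexokinase, *GPI*, *PFKM*) and the sugar is cleaved into trioses (*ALDOA*, *TPI1*), and in the second stretch ATP is won (*GAPDH*, *PGK1*, *PGAM2*, *ENO3*). Several of the enzymes exist as isoforms, and *PFKM*, *PGAM2*, *ENO3* and *LDHA* are the forms that predominate in muscle.

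The values are log2 signals made by the authors with GCRMA, and a level of 1 probe set cannot be set against that of another because each has its own oligonucleotides. Signal was read against the 17 tag control probe sets, which match no pig transcript and averaged 2.11. On the 19 arrays the medians ran between 3.44 and 3.60, and the highest signals between 15.93 and 16.11. Of the 21 member probe sets 20 were above all tag controls on every array, as were 16211 of the 24008 probe sets tested. The exception was *GAPDH* D, with a mean of 2.19 and no array above the tag controls. Markers of the muscle fibre were high on all arrays, with means of 15.33 in HIGH and 15.35 in LOW pigs for *CKM* (muscle creatine kinase) and 14.43 in HIGH and 14.42 in LOW pigs for *TTN* (titin). Of 6 adipocyte markers 4 were measured and 3 had higher means in HIGH pigs, *ADIPOQ* by 1.39, *LIPE* by 1.06 and *FABP4* by 0.58, each with an unadjusted limma p below 0.05 and none past the adjusted threshold. The level of the summed adipocyte markers (log2 of the summed linear signals) ran between 10.56 and 11.46 in HIGH and between 9.93 and 10.98 in LOW pigs, *LEP* was not above the tag controls on any array, and the part of fat cells in the values below was not tested. In pieces of whole muscle, less RNA of a gene per fibre cannot be told apart from fewer fibres of a type.

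*GPI* (glucose-6-phosphate isomerase) turns glucose 6-phosphate into fructose 6-phosphate. Its log2 signal had a lowest value of 12.54, a median of 13.69 and a highest value of 13.85 in HIGH pigs, against 13.15, 13.84 and 14.02 in LOW pigs. The groups overlapped, and the bottom of each was held by a single pig: pig 10 of the HIGH group (HIGH 10) and pig 1 of the LOW group (LOW 1), while the lowest of the other 17 pigs was at 13.45. The mean was 13.58 ± 0.38 in HIGH (SD, n = 10) and 13.77 ± 0.25 in LOW pigs (SD, n = 9), which overlap within 1 SD. The difference HIGH minus LOW was -0.19 (SE 0.14, 95% interval -0.49 to 0.10, limma p = 0.192, adjusted p = 0.993). The difference was -0.08 (SE 0.09, p = 0.406) without HIGH 10 and -0.27 without LOW 1. Without both low pigs it was -0.15 (SE 0.06, 95% interval -0.28 to -0.03, limma p = 0.017), and after adjustment over all probe sets its p was 0.9999. Both pigs were left out after their low values were seen, so this p and interval are descriptions and not a test.

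*PFKM* (muscle phosphofructokinase) commits the sugar to glycolysis and is the step at which the pathway is chiefly controlled. Its log2 signal in HIGH pigs was 12.82 at the lowest, 13.89 at the median and 14.18 at the highest, against 13.86, 14.02 and 14.24 in LOW pigs. HIGH 10 lay below all others, since the next lowest HIGH pig was at 13.78, and LOW 1, at 13.96, was within its group. The means were 13.85 ± 0.39 in HIGH and 14.04 ± 0.11 in LOW pigs, and the difference of -0.18 (SE 0.13, 95% interval -0.45 to 0.08) did not pass the test (limma p = 0.166, adjusted p = 0.993). Without HIGH 10 it was -0.07 (SE 0.06, p = 0.291).

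*TPI1* (triosephosphate isomerase) makes both trioses usable by the second stretch. It repeated the pattern of *GPI*, with 12.61 at the lowest, 13.84 at the median and 13.99 at the highest in HIGH pigs, against 13.23, 13.97 and 14.10 in LOW pigs. HIGH 10 and LOW 1 again held the bottom of their groups, and the remaining 17 pigs lay between 13.61 and 14.10. Between the groups *TPI1* differed by -0.16 (SE 0.15, 95% interval -0.47 to 0.15, limma p = 0.299, adjusted p = 0.993), by -0.04 (SE 0.09, p = 0.694) without HIGH 10 and by -0.24 without LOW 1.

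*GAPDH* (glyceraldehyde-3-phosphate dehydrogenase) captures electrons from the triose and is widely used as a reference gene because its level is held to be steady. Its 14 probe sets did not behave as 1 measurement. In 11 of them, the 9 array controls with *GAPDH* B and *GAPDH* C, the mean signal lay between 13.73 and 15.83 and the SD over 19 pigs between 0.06 and 0.15. In *GAPDH* A the mean was 13.86 and the SD was 0.54, larger than that of 89.7% of all probe sets tested. *GAPDH* E had a mean of 7.68 and an SD of 0.13.

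*GAPDH* A had a log2 signal of 12.10 at the lowest, 13.92 at the median and 14.38 at the highest in HIGH pigs, against 12.86, 14.02 and 14.45 in LOW pigs. HIGH 10 and LOW 1 were the lowest of their groups, and the other 17 pigs lay between 13.67 and 14.45. Probe set AFFX-Ssc-gapdh-3_s_at, the *GAPDH* probe set of highest mean, instead had 15.71, 15.83 and 15.90 in HIGH pigs, against 15.76, 15.85 and 15.95 in LOW pigs. Here HIGH 10 was at 15.85 and LOW 1 at 15.82, neither at the bottom of its group. LOW 1 was the lowest LOW pig in AFFX-Ssc-gapdh-5_at, AFFX-Ss_Gapdh_5_at and AFFX-Ss_Gapdh_M_at. AFFX-Ssc-gapdh-3_s_at lay on average 0.17 below the highest signal of the array, and at least 0.03, so its values stood at the top of the scale. Whether a fall in the transcript would show there was not tested. Over the 55 pairs among the 11 *GAPDH* probe sets the correlation over 19 pigs had a median r of 0.748 (0.265 to 0.955), whereas *GAPDH* A correlated with those 11 at a median r of 0.246 (-0.168 to 0.587). These coefficients are descriptions over the same 19 arrays. The plot of the 14 *GAPDH* probe sets shows this separation, and which of them follows the *GAPDH* transcript best was not tested.

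**Figure D1:**
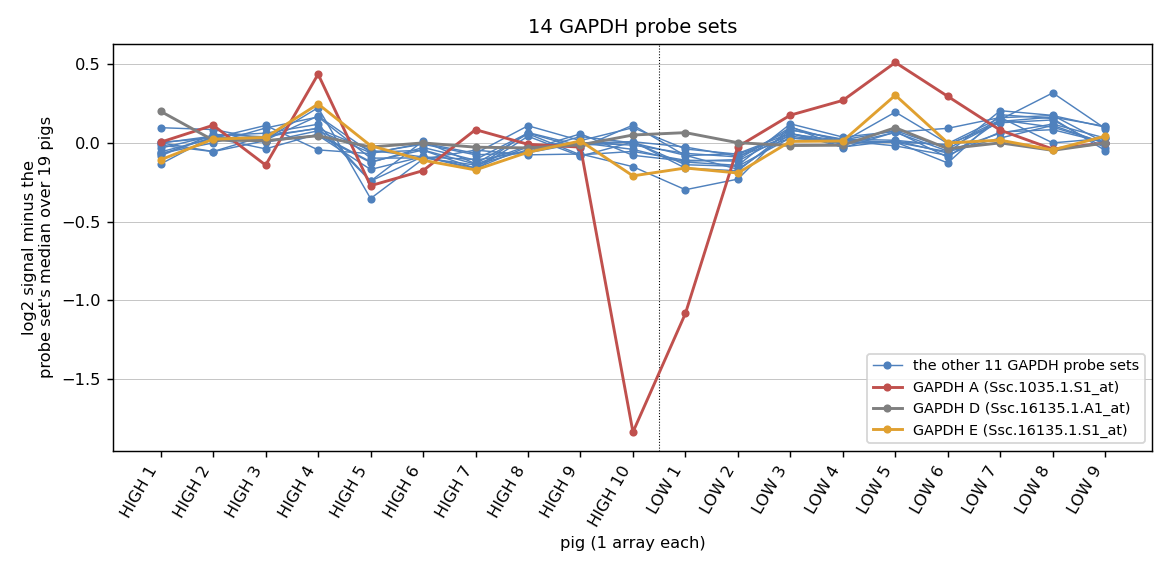
Log2 signal of the 14 *GAPDH* probe sets in each of the 19 pigs, as the difference from that probe set's own median over 19 pigs (y axis), with HIGH pigs left of the dotted line and LOW pigs right of it. *GAPDH* A, in red, drops in HIGH 10 and LOW 1, while in HIGH 10 the 11 probe sets in blue differ from the median of the other HIGH pigs by -0.11 to 0.14 and in LOW 1 from that of the other LOW pigs by -0.35 to -0.04.

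None of the 14 *GAPDH* probe sets passed the test between the fattening groups. For the 11 probe sets the difference HIGH minus LOW ran between -0.08 and -0.0047 (SE 0.03 to 0.07, limma p between 0.114 and 0.901). It was -0.20 for *GAPDH* A (SE 0.23, 95% interval -0.69 to 0.28, p = 0.393), -0.03 for *GAPDH* E (SE 0.08) and 0.02 for *GAPDH* D (SE 0.03), the probe set at the level of the tag controls. Without HIGH 10 the difference of *GAPDH* A was -0.02 (SE 0.16, p = 0.902), and without LOW 1 it was -0.34.

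*PGK1* (phosphoglycerate kinase) makes the first ATP of the second stretch. Its log2 signal was 13.13 at the lowest, 14.12 at the median and 14.33 at the highest in HIGH pigs, against 13.63, 14.12 and 14.24 in LOW pigs. The lowest values were again those of HIGH 10 and LOW 1, and the lowest of the other 17 pigs was at 13.85. The medians were alike, and the difference of -0.04 (SE 0.12, 95% interval -0.30 to 0.22, limma p = 0.772, adjusted p = 0.993) turned to 0.06 (SE 0.08) without HIGH 10 and was -0.09 without LOW 1.

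*PGAM2* (phosphoglycerate mutase of muscle) and *ENO3* (muscle enolase) carry phosphoglycerate to phosphoenolpyruvate. *PGAM2* had 14.49, 14.94 and 15.04 as its lowest, median and highest log2 signal in HIGH pigs, against 14.79, 15.01 and 15.16 in LOW pigs. HIGH 10 held the lowest of these values, and the next lowest HIGH pig was at 14.83. *ENO3* was the steadiest of the genes read by a single probe set, with an SD of 0.08 over 19 pigs. Its signal was 14.83 at the lowest, 14.96 at the median and 15.11 at the highest in HIGH pigs, against 14.88, 15.00 and 15.12 in LOW pigs. HIGH 10, at 14.91, was not the lowest of its group for *ENO3*. LOW 1 was the lowest LOW pig for both genes, at 14.79 for *PGAM2* and 14.88 for *ENO3*. The difference HIGH minus LOW was -0.08 for *PGAM2* (SE 0.07, 95% interval -0.22 to 0.06, limma p = 0.242) and -0.05 for *ENO3* (SE 0.04, 95% interval -0.13 to 0.04, p = 0.265), each with an adjusted p of 0.993. Without HIGH 10 that of *PGAM2* was -0.04 and that of *ENO3* was -0.04. Without LOW 1 they were -0.11 and -0.06.

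*LDHA* (lactate dehydrogenase A) reduces pyruvate to lactate and so lets glycolysis go on without oxygen. In HIGH pigs its log2 signal had a lowest value of 14.31, a median of 15.04 and a highest value of 15.22, against 14.79, 15.08 and 15.18 in LOW pigs. HIGH 10 and LOW 1 were lowest in their groups, and the lowest of the other 17 pigs was at 14.92. The groups differed by -0.06 (SE 0.09, 95% interval -0.24 to 0.13, limma p = 0.538, adjusted p = 0.993), by 0.02 without HIGH 10 and by -0.09 without LOW 1. The plot of single pigs shows how far the 2 low pigs widened the spread. The SD over 19 pigs and over the 17 without them was 0.33 and 0.14 for *GPI*, 0.34 and 0.13 for *TPI1*, 0.30 and 0.14 for *PFKM*, 0.28 and 0.13 for *PGK1*, 0.20 and 0.08 for *LDHA*, 0.54 and 0.21 for *GAPDH* A, and 0.08 in both for *ENO3*.

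**Figure D2:**
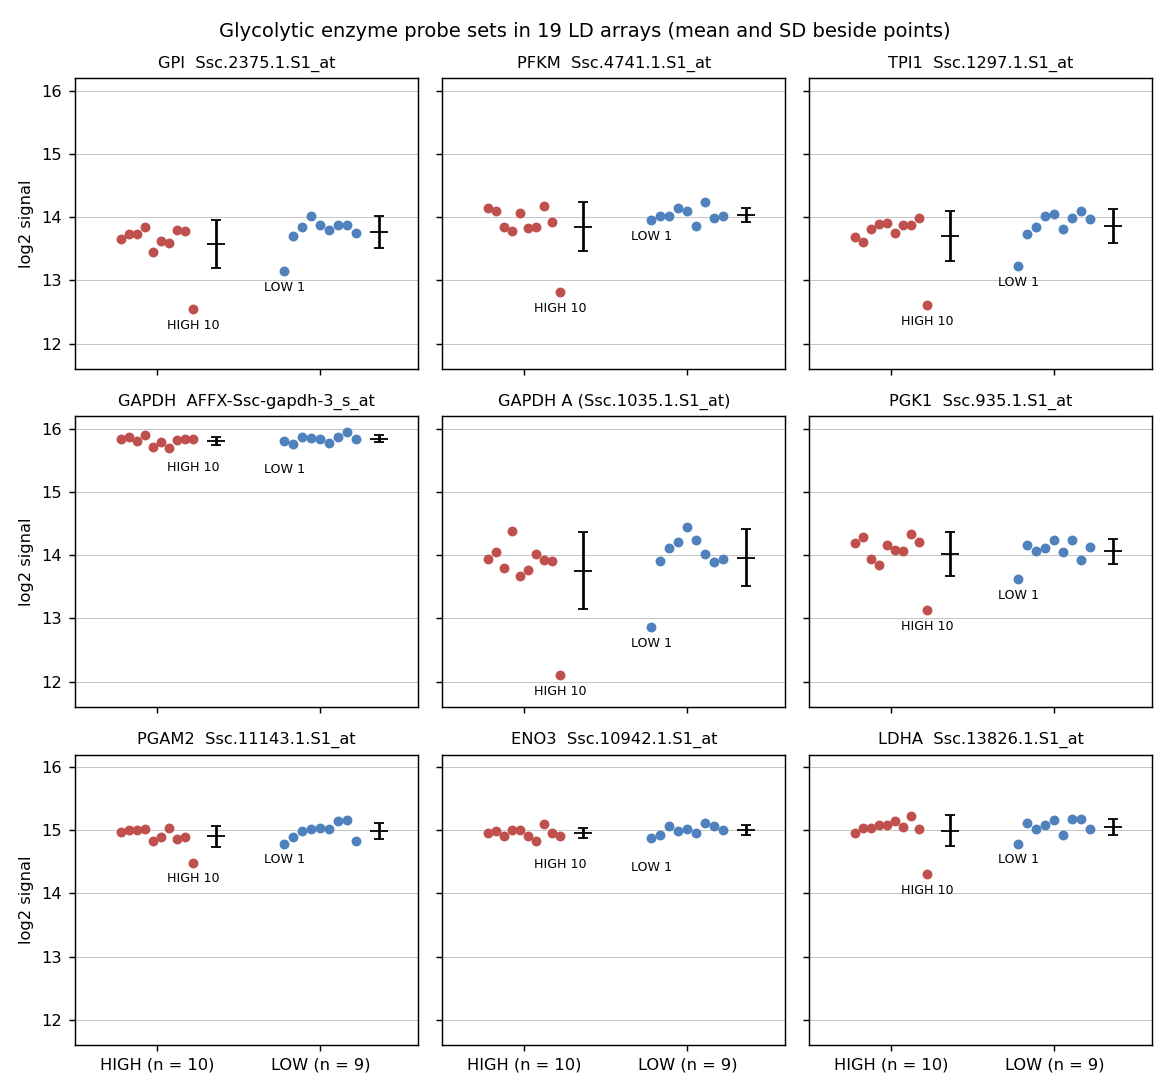
Log2 signal (y axis) of 9 member probe sets in each pig, with HIGH pigs (n = 10, red) left of LOW pigs (n = 9, blue) and the mean and SD of each group as a black bar. HIGH 10 and LOW 1 are named: HIGH 10 is the lowest of 19 pigs in 7 of the 9 panels and lies within its group for *ENO3* and for the *GAPDH* probe set AFFX-Ssc-gapdh-3_s_at.

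Taking the members as a list, no glycolytic probe set passed the test between HIGH and LOW pigs. With limma and Benjamini-Hochberg adjustment, 0 of 21 members and 0 of 24008 probe sets tested (0%) had an adjusted p below 0.05. At an unadjusted p below 0.05 the count was 0 of 21 members, against 843 of the 24008 (3.51%), and an exact permutation test over the 92378 splits of the pigs gave 845 unadjusted and 0 adjusted calls. The signal was lower in HIGH pigs for 20 of the 21 members, with a median difference of -0.04. Of all probe sets tested 58.7% were lower in HIGH pigs, with a median of -0.0063, and among the 16211 above the tag controls on every array 51.4% were lower. The members share the same pigs and 14 of them read 1 gene, so this count is not a count of independent measurements. Without HIGH 10, 18 of 21 were lower, and those higher were *PGK1* by 0.06, *LDHA* by 0.02 and *GAPDH* D by 0.01. Without HIGH 10 and LOW 1, 19 of 21 were lower, the median was -0.05 and 1 member (*GPI*) had an unadjusted p below 0.05, against 901 of all probe sets (3.75%). That setting was added after the values were seen, so its counts are descriptions.

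**Figure D3:**
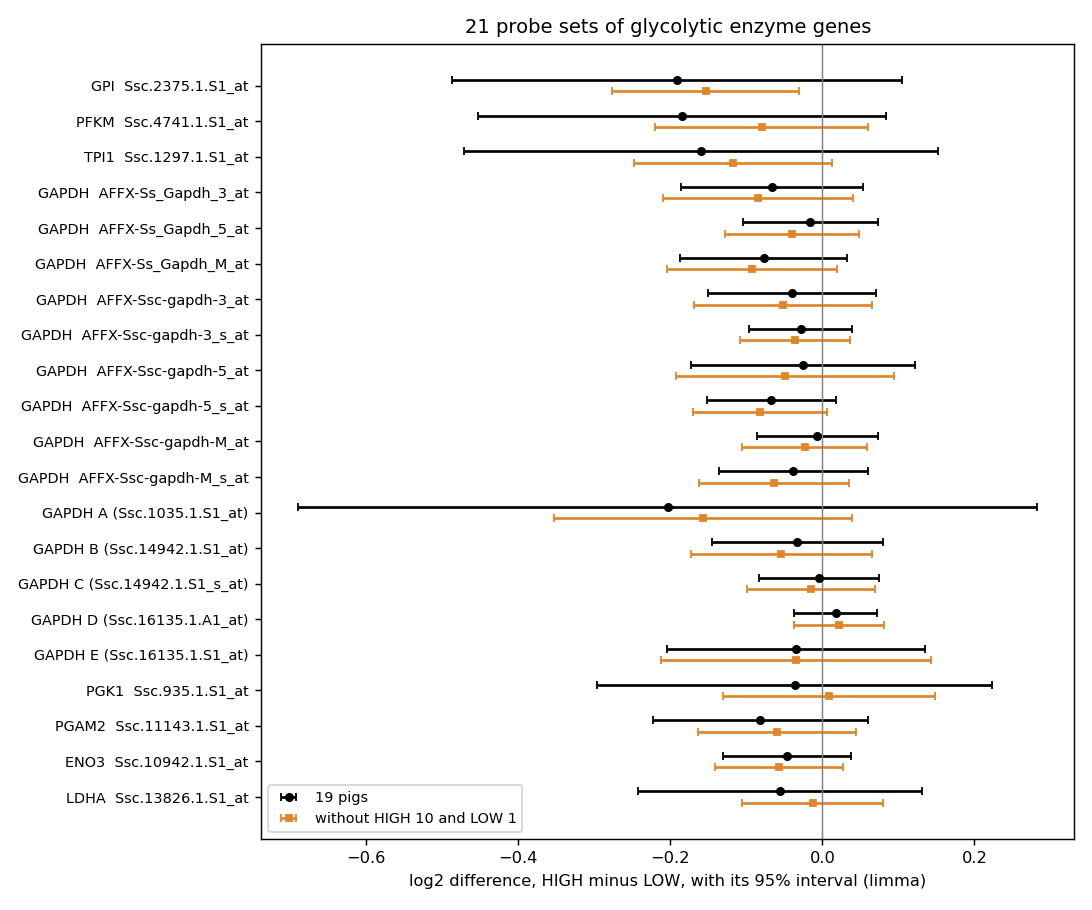
Log2 difference HIGH minus LOW (x axis) of the 21 member probe sets with its 95% interval from limma, over 19 pigs (black circles) and without HIGH 10 and LOW 1 (orange squares). All black intervals include 0, and the widest, of *GAPDH* A, narrows from a span of -0.69 to 0.28 to a span of -0.35 to 0.04 when both pigs are left out.

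HIGH 10 was the lowest of 19 pigs in 8 of the 21 members, among them 6 of the 7 genes outside *GAPDH*, and it was the lowest of 19 in 25.3% of all probe sets tested. Relative to the median of the other 9 HIGH pigs its signal was lower by 3.55-fold for *GAPDH* A, 2.40-fold for *TPI1*, 2.28-fold for *GPI*, 2.16-fold for *PFKM*, 2.04-fold for *PGK1*, 1.66-fold for *LDHA* and 1.40-fold for *PGAM2*. In *ENO3* the difference was -0.05 on the log2 scale, and in the 11 *GAPDH* probe sets it ran between -0.11 and 0.14. The deep values lay in both stretches of the pathway and at the lactate step. *ENO3* and 11 of the 12 abundant *GAPDH* probe sets were not deep, and of the *GAPDH* probe sets *GAPDH* A alone was. In 7 members HIGH 10 lay beyond Dixon's 95% value for a single low sample in a group of 10, as it did in 0.875% of all probe sets tested. Counting any pig at either end, 12 of the 42 groups of member values held a pig beyond that value, against 21.9% of the HIGH and 33.5% of the LOW groups of all probe sets.

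LOW 1 was low in most of the same genes, less deeply. Its signal was lower than the median of the other 8 LOW pigs by 2.32-fold for *GAPDH* A, 1.68-fold for *TPI1*, 1.63-fold for *GPI*, 1.41-fold for *PGK1* and 1.24-fold for *LDHA*. *PFKM* departed from this, with a difference of -0.06 on the log2 scale in LOW 1 and of -1.11 in HIGH 10. LOW 1 lay beyond Dixon's value in *GPI*, *TPI1* and *GAPDH* A, 3 of 21 members, against 0.737% of all probe sets tested. It was the lowest of 19 pigs in 0 of 21 members, because HIGH 10 or another pig lay below it, and in 4.69% of all probe sets tested.

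Measures of array quality differed between the pigs. The 3' minus 5' log2 signal of the actin and EF1A controls, which grows as RNA is degraded, was 1.93 in HIGH 10 and 2.51 in LOW 1, and lay between 1.42 and 1.93 in the other 17. The mean correlation with the other arrays was 0.980 for HIGH 10 and 0.982 for LOW 1, where the other arrays had 0.980 to 0.988. Among the 16211 probe sets above the tag controls, HIGH 10 was the lowest of 19 pigs in 16.8%, against 2.13 to 8.89% for each other pig, and it lay more than 1 log2 unit above the median over pigs in 3.70%, against 0.413 to 2.50%. HIGH 10 lay more than 1 log2 unit below the median of the other HIGH pigs in 2.63%, with a median difference of -0.03, and LOW 1 lay as far below the other LOW pigs in 2.86%, with a median of 0.0085. The mean distance below the highest signal on the array was 1.95 to 2.33 for *PGK1*, *PFKM*, *GAPDH* A, *TPI1* and *GPI* and 0.97 to 1.05 for *LDHA*, *ENO3* and *PGAM2*, while AFFX-Ssc-gapdh-3_s_at lay 0.17 below it. The *GAPDH* controls farthest below it were AFFX-Ss_Gapdh_5_at (2.27), AFFX-Ss_Gapdh_3_at (1.76) and AFFX-Ss_Gapdh_M_at (1.73). In these HIGH 10 differed from the median of the other HIGH pigs by 0.14, -0.02 and -0.04. LOW 1 differed from that of the other LOW pigs by -0.13, -0.20 and -0.22. The part of RNA quality and of signal compression near the top of the scale in the 2 low pigs was not tested.

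Co-variation over pigs was measured between the 8 genes, each by its probe set of highest mean, in 28 pairs with a 2-sided permutation test and adjustment over the 28. Over 19 pigs 27 pairs had a positive r, the median r was 0.647, and 17 pairs had an adjusted p below 0.05. By Spearman's rho the median was 0.435 and 9 pairs passed, 6 of them shared with the 17. The strongest pair was *GPI* with *TPI1* (r = 0.930, p = 0.0001, adjusted p = 0.00093, rho = 0.751, p = 0.0004, adjusted p = 0.005). Next came *TPI1* with *LDHA* (r = 0.908, adjusted p = 0.0014, rho = 0.574, adjusted p = 0.037). *GAPDH*, read by AFFX-Ssc-gapdh-3_s_at, passed with *ENO3* by r (r = 0.592, adjusted p = 0.016, rho = 0.605, adjusted p = 0.027) and by rho also with *GPI* (rho = 0.614, adjusted p = 0.027). Read by *GAPDH* A it had r = 0.947 with *GPI*, 0.895 with *TPI1* and 0.403 with *ENO3*.

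Much of this co-variation rested on 2 pigs. Without HIGH 10 and LOW 1 the median r was 0.266 and 4 of the 28 pairs passed, 2 of them (*PFKM* with *PGK1*, and *GAPDH* with *ENO3*) shared with the 17. *GPI* with *PGK1* had r = 0.813 over 19 pigs and -0.077 without both pigs, and *TPI1* with *PGK1* had 0.809 and -0.149. *TPI1* with *LDHA* had 0.394 without them, and *GPI* with *TPI1* had 0.506 (adjusted p = 0.138). When the 2 pigs farthest from the median of the first gene of a pair were left out, 5 of the 17 pairs kept an r of at least 0.5 and 12 did not. Within HIGH pigs 1 pair passed (*PFKM* with *PGK1*, r = 0.975, adjusted p = 0.0031, permutation test). Within LOW pigs none of 28 did by the exact permutation test, although 12 had an unadjusted p below 0.05, against 7 within HIGH pigs.

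*PFKM* with *PGK1* was the relation that stood in each of these settings but the LOW group. It had r = 0.877 and rho = 0.754 over 19 pigs (adjusted p = 0.00093 for r and 0.005 for rho), r = 0.745 without HIGH 10 and LOW 1 (adjusted p = 0.013), r = 0.975 within HIGH pigs and r = 0.558 within LOW pigs (exact permutation p = 0.130, n = 9). Without HIGH 10 and HIGH 4, the pigs farthest from the median of *PFKM*, r was 0.539. Without HIGH 10 and LOW 1, *GPI* with *GAPDH* (r = 0.734, adjusted p = 0.013) and *PFKM* with *ENO3* (r = 0.646, adjusted p = 0.037) also passed, and over 19 pigs these had r = 0.237 and 0.462, with rho of 0.614 and 0.625 (adjusted p = 0.027 for both rho). In the heat maps the coefficients over 19 pigs are high among *GPI*, *PFKM*, *TPI1*, *PGK1*, *PGAM2* and *LDHA* (0.612 to 0.930). They are lower for *ENO3* (0.382 to 0.592), and for *GAPDH* with all genes but *ENO3* (-0.110 to 0.264). Few high blocks are left in the second map.

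**Figure D4:**
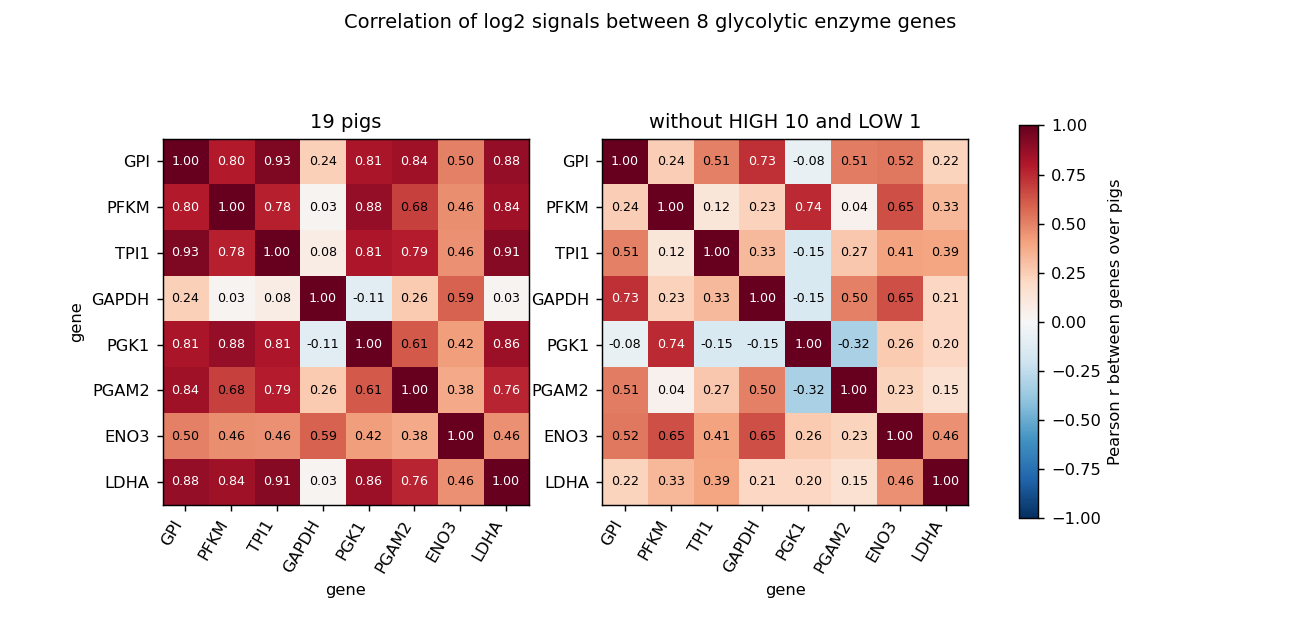
Pearson r of log2 signals between the 8 glycolytic enzyme genes, in pathway order on both axes, over 19 pigs (left) and without HIGH 10 and LOW 1 (right), with *GAPDH* read by AFFX-Ssc-gapdh-3_s_at. The median over the 28 pairs is 0.647 on the left and 0.266 on the right.

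Of the other enzymes and isoforms of glycolysis, 13 of 18 listed genes had a probe set with 1 symbol, 7 of them above the tag controls on all arrays. Among the 13, 8 were lower and 5 higher in HIGH pigs, with a median difference of -0.0094, and 0 passed the adjusted threshold. *ALDOC*, the aldolase isoform of brain, had a mean of 7.10 ± 0.36 in HIGH and 6.42 ± 0.50 in LOW pigs, a difference of 0.68 (SE 0.19, limma p = 0.0023, adjusted p = 0.993). *BPGM*, which diverts a glycolytic intermediate to bisphosphoglycerate, averaged 9.35 ± 0.59 in HIGH and 9.92 ± 0.45 in LOW pigs, a difference of -0.57 (SE 0.23, p = 0.022, adjusted p = 0.993). *BPGM* was also low in HIGH 10, with a difference of -1.69 from the median of the other HIGH pigs. *LDHB* and *ENO1*, the heart form of lactate dehydrogenase and the ubiquitous enolase, were named after their values were seen. *LDHB* differed by -1.19 in HIGH 10 and by -0.32 in LOW 1 from the median of the other pigs of the group, and *ENO1* by -1.06 and -1.52. *PKM* went the other way, by 0.39 and 0.62, and *ALDOC* differed by -0.08 and -0.79. Of the 7 genes above the tag controls, 6 lay below that median in HIGH 10 and 6 in LOW 1. Over the 16211 probe sets above the tag controls on all arrays the shares were 56.8% and 44.8%.

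Among genes that control or adjoin glycolysis 15 of 23 were measured, 6 lower and 9 higher in HIGH pigs, and 0 passed. *SLC16A3*, which exports lactate from fast fibres, had a mean of 6.90 ± 1.08 in HIGH and 7.50 ± 0.35 in LOW pigs, a difference of -0.61 (SE 0.35, limma p = 0.104), which was -0.33 (p = 0.072) without HIGH 10 and LOW 1. HIGH 10 differed from the median of the other HIGH pigs by -3.20 in *SLC16A3* and by -3.13 in *PPARGC1A*, the coactivator of mitochondrial genes. LOW 1 differed from the other LOW pigs by -0.35 in *SLC16A3* and by 1.29 in *PPARGC1A*, so the 2 pigs had this gene on opposite sides of their groups. *FBP2*, the muscle fructose bisphosphatase, differed by -1.26 in HIGH 10 and by -0.23 in LOW 1, and was named after its value was seen.

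Fibre type genes were set beside these values. Of the 7 measured fast fibre genes 5 were lower in HIGH pigs, with a median difference of -0.02, and of the 11 slow fibre genes 9 were lower, with a median of -0.09, none past the adjusted threshold. *ATP2A1*, the calcium pump of fast fibres, averaged 13.19 ± 0.44 in HIGH and 13.67 ± 0.18 in LOW pigs (difference -0.48, SE 0.15, limma p = 0.0042, adjusted p = 0.993). *MYBPC1*, the slow myosin-binding protein, averaged 13.10 ± 0.26 in HIGH and 13.30 ± 0.16 in LOW pigs (difference -0.20, SE 0.10, p = 0.057). In HIGH 10 the median difference from the other HIGH pigs was -0.28 over the fast and -0.30 over the slow fibre genes, and 0.11 over the 5 muscle fibre markers. These lists overlap: *CKM*, whose value is that last median, is also a fast fibre gene, and *MYH7* is also a slow fibre gene. In LOW 1 the medians against the other LOW pigs were -0.09, -0.11 and 0.02. HIGH 10 lay below the median of the other HIGH pigs in 5 of 7 fast and 10 of 11 slow fibre genes. Among the 16211 probe sets above the tag controls on all arrays, HIGH 10 lay below that median in 56.8% and was the lowest of 19 pigs in 16.8%. It was the lowest of 19 pigs in 3 of the fast genes (*MYH2* by -0.28, *TNNT3* by -0.36 and *TNNI2* by -0.59 from that median) and in 4 of the slow genes (*MYBPC1* by -0.59, *TNNT1* by -0.41, *TNNI1* by -0.29 and *MYL3* by -1.10). The 5 muscle fibre markers differed by 0.11 for *CKM*, 0.20 for *TTN*, -0.02 for *NEB*, 0.60 for *DES* and -0.16 for *MYH7*. The plot of gene lists in the 2 pigs shows these lists beside the glycolytic genes, and their part in the low glycolytic signal of HIGH 10 was not tested. Over all 20 member probe sets above the tag controls, most of them *GAPDH*, the medians were -0.06 in HIGH 10 and -0.18 in LOW 1.

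**Figure D5:**
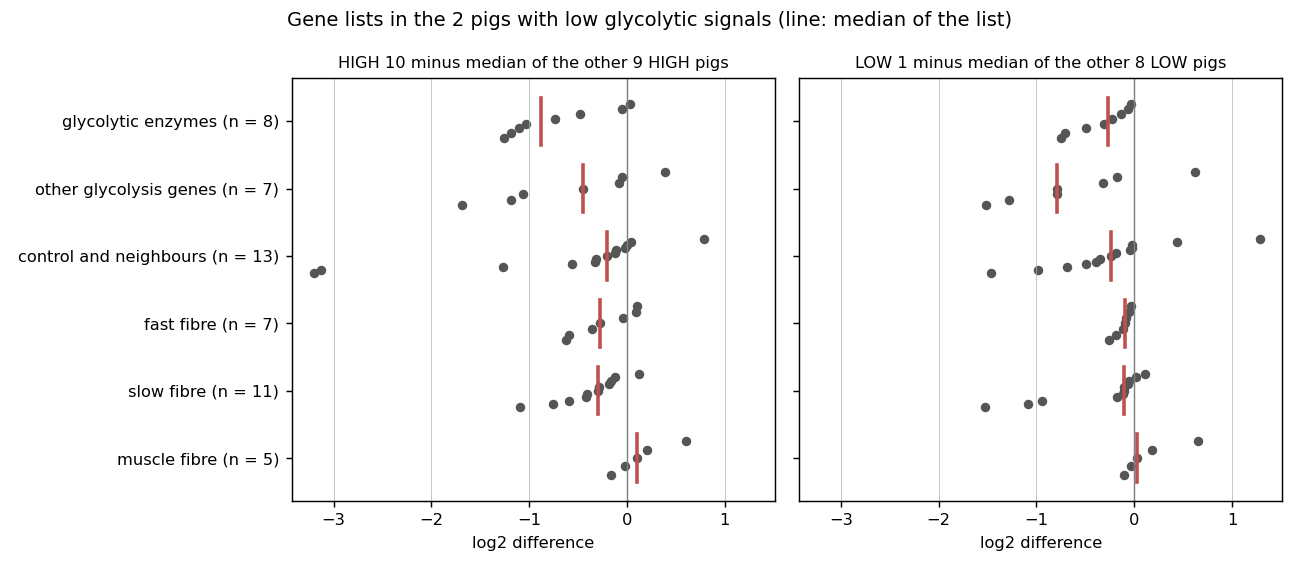
Log2 difference of HIGH 10 from the median of the other 9 HIGH pigs (left) and of LOW 1 from the median of the other 8 LOW pigs (right), with 1 point per probe set above the tag controls on all arrays and a red line at the list's median. The 8 glycolytic enzymes, each by its probe set of highest mean, have a median of -0.88 in HIGH 10 and -0.27 in LOW 1. The other glycolysis genes have -0.45 and -0.79, and the genes that control or adjoin glycolysis -0.21 and -0.23. The fast fibre genes have -0.28 and -0.09, the slow fibre genes -0.30 and -0.11, and the muscle fibre markers 0.11 and 0.02. *CKM* is in both the fast and the muscle fibre list, and *MYH7* in both the slow and the muscle fibre list.

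The genes most like the glycolytic genes over 19 pigs were sought among 7232 probe sets with 1 symbol, by the correlation with the mean z-score of the 8 genes. *TNNT3* (fast troponin T, r = 0.896) came first, followed by *PRDX4* (a peroxiredoxin, 0.884), *ZADH2* (0.883), *ASNS* (asparagine synthetase, 0.856), *TNNI2* (fast troponin I, 0.855), *FBP2* (0.846), *EPDR1* (0.842), *BPGM* (0.835), *GPRC5B* (0.825) and *MVB12B* (0.821). The most opposed were *MAPK8IP3* (r = -0.883), *LOC100517973* (-0.861), *C1QTNF6* (-0.850), *PPP1R21* (-0.834) and *NOL10* (-0.831). The mean z-score was -2.62 in HIGH 10 and -1.04 in LOW 1 and between -0.42 and 0.95 in the other 17 pigs, so these coefficients turn on the same 2 animals. Without them *TNNT3* had r = 0.571, *FBP2* 0.607 and *ASNS* 0.359, and 0 of the 10 genes were among the first 10 probe sets ranked over 17 pigs, where *PDE4B* (0.766) and *CKM* (0.761) led.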

How the data were processed

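The measurements are GeneChip Porcine Genome Array signals of LD from 10 HIGH and 9 LOW pigs, grouped by the sample labels. The number of a pig is its place in the deposit within its group and serves as a name only. Per the labels and from the values, the deposited table holds log2 signals that the authors made with GCRMA, for which those sources give no version, so background, normalization and summary of probes were set before deposit and low signals are compressed toward the floor. A second deposited table held 4268 of the probe sets with identical values and no member. No other deposited value column was left unused.

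Of 24114 probe sets 106 controls were left out, and the 9 GAPDH controls were kept. Of the 24008 tested, 10078 had 1 symbol in the platform annotation, 198 several and 13732 none. limma 3.58.1 in R 4.3.3 (lmFit, eBayes with a trend) compared HIGH with LOW, with Benjamini-Hochberg adjustment over 24008 probe sets. The procedure was tested on simulated data. Correlations used 100000 permutations (scipy 1.17.1), or all permutations with 9 pigs. Each gene with several probe sets was read by that of highest mean. Members, lists, tests and the rule for named genes (every member, up to 4 genes per list by smallest p, and the 10 most like and 5 most opposed genes) were chosen with earlier results of these data known. Settings without HIGH 10 and LOW 1, without the GAPDH controls, and with GAPDH by GAPDH A (a probe set that is no array control) were added after seeing the data. The number of arrays limits the precision. Genes of the lists with several probe sets, such as ATP2A1 (2), may read differently by another of them.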

Additional observations from a re-analysis of the deposited data

Results flagged for a closer look

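In 42 groups of values (21 probe sets in HIGH and in LOW pigs) the pig at an end of its group lay beyond Dixon's 95% value in 12, where chance in well-behaved data gives about 1 in 20, or 2.1. Over all probe sets tested such a pig was found in 21.9% of HIGH and 33.5% of LOW groups, so a share of this kind is not rare on these arrays. The same pig recurred. HIGH 10 was the far low value of the HIGH group for GPI (12.54), PFKM (12.82), TPI1 (12.61), GAPDH A (12.10), PGK1 (13.13), PGAM2 (14.49) and LDHA (14.31). LOW 1 was the far low value of the LOW group for GPI (13.15), TPI1 (13.23) and GAPDH A (12.86). On the high side, HIGH 1 stood apart for GAPDH D (2.38), which is at the level of the tag controls, and LOW 5 for GAPDH E (8.003).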

How the results depend on the processing

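No setting gave a probe set past the adjusted threshold, neither among the members nor among all those tested. Members kept the sign of their difference in 121 of 125 values under other settings. The sign turned under quantile normalization for GAPDH AFFX-Ssc-gapdh-5_at (0.0023), AFFX-Ssc-gapdh-M_at (0.0053) and GAPDH C (0.00058), and without HIGH 10 and LOW 1 for PGK1 (0.0086). The cause was not tested. With each pig left out in turn the difference changed sign for 7 members, in the ranges -0.0616 to 0.00936 (AFFX-Ssc-gapdh-5_at), -0.0179 to 0.00933 (AFFX-Ssc-gapdh-M_at), -0.0240 to 0.00743 (GAPDH C), -0.00193 to 0.0292 (GAPDH D), -0.0660 to 0.00347 (GAPDH E), -0.0887 to 0.0198 (LDHA) and -0.0911 to 0.0631 (PGK1).

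Of the 28 gene pairs, 9 passed by Spearman's rho with a median of 0.435, 1 within HIGH pigs and 0 within LOW pigs. Without HIGH 10 and LOW 1, 4 passed with a median r of 0.266. With GAPDH read by GAPDH A the median r was 0.803. With each pig left out in turn between 8 and 20 pairs passed and the median r lay between 0.47 and 0.71, the lowest of both without HIGH 10, and 12 pairs passed without LOW 1. No paired analysis was possible because the labels give pigs no number that the groups share. With 10 and 9 pigs the precision is that of the 95% intervals given, and the smallest detectable difference was not calculated. Probe sets at the level of the tag controls give no order.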

Other observations

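Some genes outside the pathway were also far from their group in HIGH 10 and LOW 1, given here as the log2 difference of HIGH 10 from the median of the other 9 HIGH pigs and of LOW 1 from that of the other 8 LOW pigs. All were picked after their values were seen. LIPE (hormone-sensitive lipase) differed by 2.88 in HIGH 10 and by 2.63 in LOW 1, while FABP4, the fatty acid carrier of fat cells, differed by -0.11 and -0.36. CNN1 (smooth muscle calponin) differed by -1.83 in HIGH 10 and by -2.77 in LOW 1, and COL1A2, a chain of type I collagen, by -1.07 and -2.50. The other measured markers of these cell types were not all low. Of smooth muscle, ACTG2 differed by -1.17 and -1.88 and TAGLN by 0.31 and -0.45. Of fibroblasts, DCN differed by -0.70 and -0.97 and COL3A1 by 0.90 and 0.09. ASNS differed by -3.68 in HIGH 10 and by -2.78 in LOW 1. GPD2, the mitochondrial glycerol phosphate dehydrogenase, differed by 2.66 in HIGH 10 and by 0.09 in LOW 1.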
